A study of Mus musculus with 8 samples.

Results

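The dual-specificity MAP kinase phosphatases described here are Dusp1, Dusp2, Dusp4, Dusp5, Dusp6, Dusp10 and Dusp16. They were taken by gene symbol, 7 of the 24259 symbols in the count table, by a rule that used no measured value. Earlier results of these data were known when the members were chosen. RNA was sequenced from B cells sorted 3 days after NP-OVA immunization, 8 libraries of about 200 cells each, to ask how B cells on their way into germinal centers differed when the T cells that helped them carried a single functional copy of Bcl6. In the HET group the helpers were CD4-CrexBcl6fl/+ OT-II T cells, in which Cre driven by Cd4 acts in T cells, so that the sequenced B cells, which came from the recipients, did not carry the deletion. In the WT group they were CD4-Cre OT-II T cells. All recipients were CD45.1 Sap-/- mice, whose own T cells lack the adaptor SAP and give B cells little help, and all were immunized with NP-OVA and LPS in alum. The strain label was C57BL/6 and the tissue lymph nodes in both groups, and ages were not given in the sources used here. The sorted cells were NP-binding, IgD-low and B220-positive. Per the methods of the study, recipients of a group were pooled and the 4 libraries of that group were repeated sorts from this pool. The p-values therefore measure the spread of sorting and library preparation, and the effect of the helper genotype and a difference between the pools cannot be told apart. Because the floxed allele was in the T cells, no targeted gene was available to check the group labels.

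MAP kinases are switched on when an upstream kinase phosphorylates both a threonine and a tyrosine in their activation loop, and a dual-specificity phosphatase switches them off by removing both phosphates. In lymphocytes the antigen receptor, CD40 and Toll-like receptors feed into the ERK, JNK and p38 branches of this system. Several of the phosphatase genes are induced by the kinases that their products inactivate, so that their mRNAs are commonly used as a record of recent MAP kinase activity. They differ in where they act and on which kinase: DUSP1, DUSP2, DUSP4 and DUSP5 are inducible nuclear enzymes, DUSP6 is a cytoplasmic enzyme for ERK, and DUSP10 and DUSP16 act mainly on JNK and p38.

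Upstream sequences are shown for Dusp1 and Dusp5, which held motifs of signal-responsive factors, for Dusp2, the most abundant member, and for Dusp16, which with Dusp1 had the largest difference between the groups. The 250 bases before the RefSeq transcription start (GRCm38.p6) were searched on both strands in the 6 members that matched the promoter table, and Dusp4 is named only. The motifs were the cAMP response element TGACGTCA, its shorter core TGACG (which lies within the full element), the AP-1 site TGANTCA, the CArG box bound by serum response factor, the E-box CACGTG, the kappa B site, the CCAAT box and the TATA box TATAAA. Each sequence is given 5′ to 3′ on the strand of the gene with motif matches in capitals. The Dusp1 stretch is chr17:26508520-26508722 (minus strand), the Dusp2 stretch chr2:127335909-127336158 (plus strand), the Dusp5 stretch chr19:53529050-53529099 (plus strand) and the Dusp16 stretch chr6:134792629-134792878 (minus strand). Counted from the start, the Dusp1 stretch runs from base -250 to -48 and the Dusp5 stretch from base -95 to -46. Those of Dusp2 and Dusp16 hold all 250 bases.
Dusp1: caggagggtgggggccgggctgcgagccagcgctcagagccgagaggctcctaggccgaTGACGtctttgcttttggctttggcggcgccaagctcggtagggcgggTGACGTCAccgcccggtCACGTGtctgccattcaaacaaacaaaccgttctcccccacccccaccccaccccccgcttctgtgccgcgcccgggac
Dusp2: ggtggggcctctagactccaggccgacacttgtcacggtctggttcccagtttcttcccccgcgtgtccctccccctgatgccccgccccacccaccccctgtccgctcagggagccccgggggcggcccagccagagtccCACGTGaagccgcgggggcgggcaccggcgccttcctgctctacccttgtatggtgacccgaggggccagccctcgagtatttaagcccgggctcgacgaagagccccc
Dusp5: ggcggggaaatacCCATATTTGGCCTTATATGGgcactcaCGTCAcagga
Dusp16: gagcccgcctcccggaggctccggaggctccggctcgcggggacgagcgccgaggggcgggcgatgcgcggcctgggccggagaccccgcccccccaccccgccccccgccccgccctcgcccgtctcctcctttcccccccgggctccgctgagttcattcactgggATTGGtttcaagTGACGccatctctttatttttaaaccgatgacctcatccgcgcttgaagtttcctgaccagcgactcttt

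In Dusp1 the full cAMP response element began 143 bases before the start and an E-box began 126 bases before it, with a further core 191 bases before it. In Dusp5, 2 CArG boxes lay end to end from 82 to 63 bases before the start, followed by a core in reverse orientation. Dusp2 held an E-box 109 bases before the start. Dusp16 held a core and a reversed CCAAT box, Dusp10 held 3 CCAAT boxes and Dusp6 held 1. Among all 32851 promoter windows of the same length, 1.55% held the full cAMP response element, 17.8% its core, 1.47% a CArG box, 6.02% the E-box and 33.8% the CCAAT box. The letters of the AP-1 site, the kappa B site and the TATA box, held by 6.75%, 3.90% and 12.4% of all windows, were in none of the 6 members' windows. These matches are a description of the sequence and were not related to binding in these cells.

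The libraries held 6652386 to 12559189 counts, so that 3 counts amounted to 0.241 to 0.455 CPM (reads scaled to a common library total, after TMM scaling of library size). The sorted cells carried the RNA of B cells: the 10 B cell markers (Cd79a, Cd79b, Ms4a1 and others) all passed the filter on low counts and together made up 17534 to 26772 CPM in HET and 19802 to 21009 CPM in WT. The 18 T cell markers summed to 395 to 765 CPM in HET and 238 to 598 CPM in WT, with the helper markers Cd4 and Cd40lg at no more than 10 counts in any library. Other T cell markers were well above that, with Lck at a mean of 138 CPM in HET and 120 CPM in WT. Cd8b1 averaged 74.8 and 40.3 CPM. The 16 measured myeloid markers summed to 458 to 696 CPM in HET and 356 to 735 CPM in WT, with C1qb and S100a9 at no more than 10 counts. Most of this sum came from other genes: Cst3 averaged 253 CPM in HET and 227 CPM in WT, and Ly6c2 224 and 108 CPM. Lyz2 was uneven, at 399 CPM in WT replicate 2 and 0 in WT replicates 1 and 4.

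The B cells expressed the whole set of phosphatases at widely different levels, and a single member accounted for most of it. All 7 members passed the filter that kept 12744 genes. Dusp2 made up between 91.6% and 94.7% of the members' summed TPM in every library. This sum was 1307 ± 256 TPM (SD, n = 4) in HET, with libraries at 1178, 1464, 1573 and 1016, and 1458 ± 175 TPM (SD, n = 4) in WT, with libraries at 1448, 1248, 1458 and 1676. The groups overlapped, so the total phosphatase transcript level did not separate them.

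The order of the members below Dusp2 depended on the length by which reads were divided. In the deposited TPM, Dusp6 came next at a mean of 71.7 in HET and 72.5 in WT, and Dusp1 followed at 12.7 and 21.6. Dusp10 (2.75 and 3.37), Dusp5 (1.93 and 2.17), Dusp4 (1.27 and 2.0) and Dusp16 (0.732 and 0.327) were lower. The lengths implied by these values were not those of the mRNAs. Across 9379 genes with at least 20 counts in every library, 97.9% of the implied lengths were in proportion, within 2%, to the mean genomic span of the annotated transcripts, introns included, and 6.03% were in proportion to the summed exons. For the compact genes Dusp2 and Dusp6 the implied length was 0.962 and 1.02 times that of the main mRNA. For Dusp1 it was 6.17 times as long, since some annotated transcripts start far upstream, and for Dusp16 and Dusp10 it was 8.99 and 11.7 times as long.

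Divided by the length of the main transcript, Dusp1 no longer lay below Dusp6 (the plot of levels on both scales). Dusp2 averaged 394 CPM per kb in HET and 426 in WT and stayed above every other member in all 8 libraries, with 81.4% to 87.5% of the members' sum on this scale. Dusp1 averaged 26.2 CPM per kb in HET and 43.6 in WT, and Dusp6 24.6 and 24.1. Over all 8 libraries the mean level of Dusp1 was 1.43 times that of Dusp6 by main transcript, 0.965 times by summed exons and 0.238 times in the deposited TPM. In WT, Dusp1 lay above Dusp6 in 4 of 4 libraries and their ranges did not overlap, with means in a ratio of 1.81. In HET it lay above in 3 of 4 libraries with overlapping ranges and a ratio of 1.07. Dusp10 followed at 10.8 and 12.8 CPM per kb, below Dusp6 in all 8 libraries. Dusp5 averaged 3.50 and 3.81, Dusp4 1.97 and 3.01 and Dusp16 2.21 and 0.971 CPM per kb, and over all 8 libraries each overlapped the next in this order, while in WT alone Dusp4 lay above Dusp16 in 4 of 4 libraries without overlap.

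**Figure D1:**
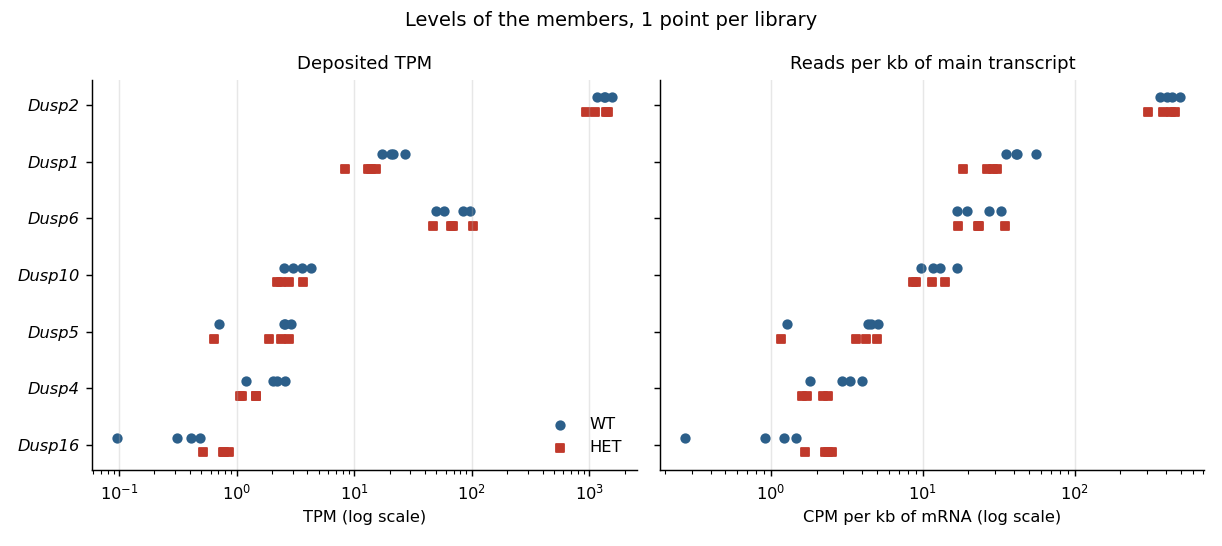
Level of each member in each library as deposited TPM (left) and as CPM per kb of the main transcript (right), both on log axes, with WT as blue circles and HET as red squares. Dusp2 is highest on both scales, while Dusp1 lies below Dusp6 in TPM (means over 8 libraries in a ratio of 0.238) and beside it per kb of mRNA (ratio 1.43).

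Between the groups, Dusp1 was lower and Dusp16 higher in HET at the level of single-gene p-values, and no member passed the adjusted threshold of 0.05 in edgeR's quasi-likelihood test over all genes. In that test 0 of the 7 members were called, beside 0.0235% of all genes tested. At an unadjusted p under 0.05 there were 2 members, Dusp1 (lower) and Dusp16 (higher), beside 7.22% of all genes, 3.88% lower and 3.34% higher. In the same 2 members every HET library lay on one side of every WT library, which held for 4.61% of all genes, 2.62% lower and 1.99% higher. DESeq2, the tool named in the methods of the study, called 1 member, Dusp1, as lower, beside 0.687% of its genes (0.39% lower and 0.296% higher). The fold changes of 5 members were below 0 and those of 2 above 0, with a median of -0.12 on the log2 scale (HET minus WT), beside a median of -0.0014 over all genes tested. Changes are given in CPM within a gene, where the choice of length plays no part.

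**Figure D2:**
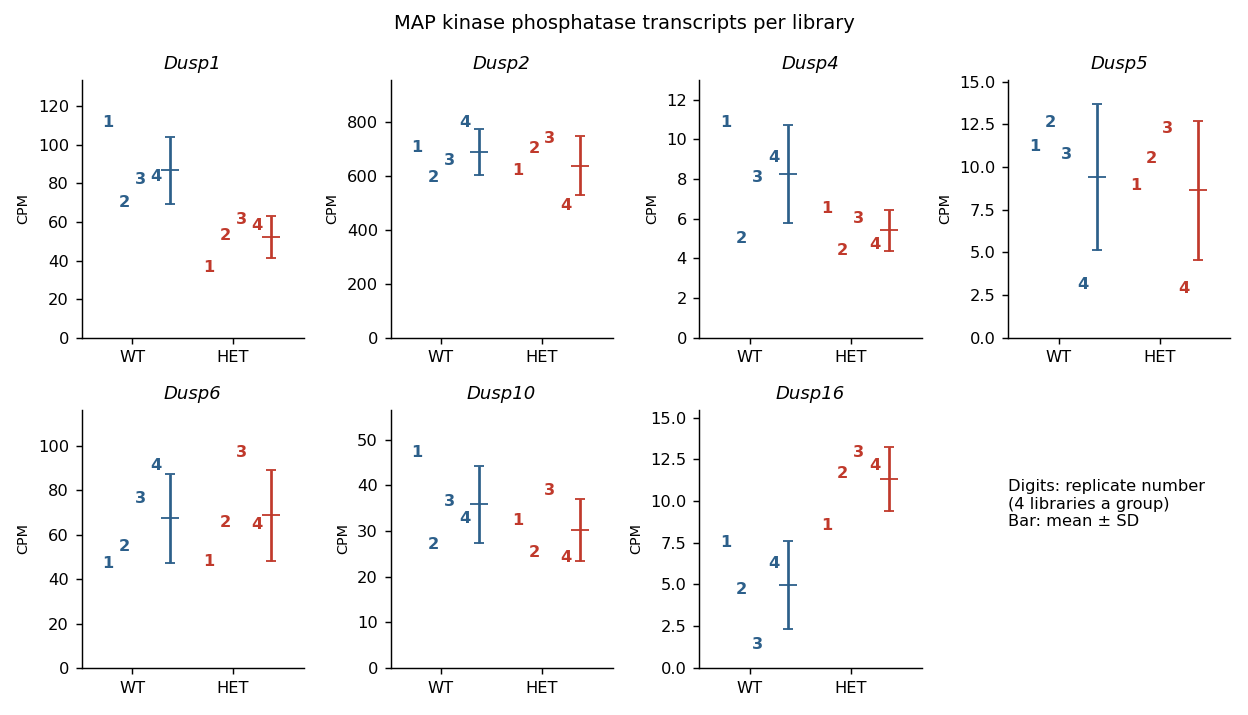
CPM of each member in each library, plotted by replicate number for WT (blue) and HET (red), with bars for mean ± SD of 4 libraries and separate vertical axes that start at 0. Dusp1 (36.5 to 61.3 in HET, 70.2 to 111 in WT) and Dusp16 (8.52 to 12.9 in HET, 1.39 to 7.51 in WT) do not overlap between the groups, and the other 5 members do.

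Dusp1 encodes MKP-1, an immediate early gene product that inactivates p38, JNK and ERK in the nucleus. Its level was 36.5, 53.1, 61.3 and 57.9 CPM in HET replicates 1 to 4 and 111, 70.2, 81.9 and 83.5 CPM in WT replicates 1 to 4. All 4 HET libraries were below all 4 WT libraries, with HET replicate 1 the lowest and WT replicate 1 the highest. On average it was 52.2 ± 11.0 CPM in HET and 86.8 ± 17.5 CPM in WT (SD, n = 4 each), 1.66 times as high in WT. The log2 fold change was -0.74 (SE 0.19, 95% interval -1.15 to -0.33), with an edgeR adjusted p of 0.328. DESeq2 gave a log2 fold change of -0.73 and an adjusted p of 0.0456. Leaving out each library in turn gave log2 fold changes between -0.82 and -0.59, and the direction was the same in all 17 alternatives. With groups that do not overlap, leaving out 1 library could not be expected to change the direction. The adjusted p ranged from 0.0456 to 0.644 over the 17 alternatives. The gene lies at chr17:26505590-26562128 (GRCm38, minus strand), and exons of its longer transcripts overlap an exon of Ergic1 on the opposite strand, which had 112 to 409 counts. The exons of the main transcript do not.

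Immediate early genes, the class to which Dusp1 belongs, were examined beside it. Of the 17 immediate early genes that passed the filter, 15 had fold changes below 0 and 2 above 0, with a median of -0.23. Several of the 15 were near 0, among them Egr1 (-0.12), Egr2 (-0.08) and Nr4a1 (-0.06). In edgeR 5 of the 17 were lower at an unadjusted p under 0.05, beside 3.88% of all genes. The 1 higher, beside 3.34%, was Nr4a3 (1.60), at 4.09 CPM on average in HET and 1.33 CPM in WT. edgeR called 2 of the 17, Fos and Jun, which encode subunits of AP-1. Their log2 fold changes were -1.43 (edgeR adjusted p = 0.00206) and -1.0 (edgeR adjusted p = 0.0411). With any 1 HET library or WT replicate 3 left out, edgeR called 1 gene in all, so at least 1 of these 2 calls was lost there. The same held without WT replicate 4, where 1 gene was called lower and 1 higher. Both were lost with the replicate block and on log2(TPM + 1), where 0 genes were called. They were also lost on log2(TPM + 0.1), where the 1 gene called was higher in HET. Zfp36, which encodes a protein that destabilizes mRNAs, had a log2 fold change of -0.46 and passed the threshold in DESeq2 (adjusted p = 0.0053) but not in edgeR (adjusted p = 0.196). The summed level of the list was 2038 to 2250 CPM in HET and 2498 to 3123 CPM in WT. Of the 13 heat shock genes tested, 8 had fold changes above 0 and 5 below 0, with a median of 0.09. Hspa1a (-3.36), Hspa1b (-3.24) and Dnajb1 (-0.46) were lower in HET by DESeq2 (adjusted p = 0.0121, 0.000972 and 0.0365). edgeR called 0 of the 13, with 4 at an unadjusted p under 0.05, 3 lower and 1, Hspd1 (0.46), higher in HET. The list summed to 5325 to 7182 CPM in HET and 5708 to 6508 CPM in WT. Of the 10 B cell markers, 9 had fold changes below 0 with a median of -0.21, and edgeR called 0 and DESeq2 called 1. At an unadjusted p under 0.05 in edgeR there were 7, all lower in HET, beside 3.88% of all genes. In 5 of them every HET library lay below every WT library, beside 2.62% of all genes. The part of these lists in the Dusp1 difference was not tested, and in sorted pools fewer cells with the transcript and less of it per cell cannot be told apart.

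Dusp2 encodes PAC-1, a nuclear phosphatase for ERK and p38 that is abundant in activated lymphocytes. It measured 619, 702, 737 and 490.1 CPM in HET and 707, 595, 655 and 797 CPM in WT. The groups overlapped, at 637 ± 109.9 CPM in HET and 689 ± 85.4 CPM in WT (SD, n = 4 each), with HET replicate 4 the lowest. The log2 fold change was -0.11 (SE 0.12, 95% interval -0.37 to 0.15, edgeR adjusted p = 0.892). The interval was the narrowest among the members. The gene lies at chr2:127336159-127338376.

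Dusp4, which encodes the nuclear ERK and JNK phosphatase MKP-2, was a low-abundance transcript. It measured 6.51, 4.40, 5.99 and 4.70 CPM in HET and 10.8, 4.98, 8.08 and 9.08 CPM in WT. Only WT replicate 2 fell within the HET range, and the other WT libraries lay above it. The means were 5.40 ± 1.01 CPM in HET and 8.24 ± 2.46 CPM in WT (SD, n = 4 each), and the log2 fold change of -0.61 (SE 0.40, 95% interval -1.46 to 0.25) did not pass the test (edgeR adjusted p = 0.795). The gene lies at chr8:34807297-34819894.

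Dusp5, which encodes a nuclear phosphatase specific for ERK, varied most from library to library among the members in HET. It measured 8.92, 10.5, 12.3 and 2.88 CPM in HET and 11.2, 12.6, 10.7 and 3.13 CPM in WT. Replicate 4 of each group stood well below its group, at 19 counts in HET and 30 in WT. The 95% counting intervals of these libraries (exact Poisson) were 1.73 to 4.49 CPM and 2.11 to 4.46 CPM, below the intervals of the other 6, which began at 7.31 CPM. The groups overlapped with and without replicate 4. The log2 fold change was -0.12 (SE 0.50, 95% interval -1.19 to 0.95, edgeR adjusted p = 0.977). Leaving out HET replicate 4 turned it to 0.17, and leaving out WT replicate 2 to 0.05. The gene lies at chr19:53529109-53542431, where an antisense transcript that the count table does not hold overlaps its exons.

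Dusp6 encodes MKP-3, which holds and dephosphorylates ERK in the cytoplasm and is a common readout of ERK activity. It measured 47.9, 65.7, 96.9 and 64.6 CPM in HET and 47.2, 55, 76.2 and 91.3 CPM in WT. The lowest and the highest library of each group were nearly level with those of the other. The means were 68.8 ± 20.5 and 67.4 ± 20.1 CPM (SD, n = 4 each), with a log2 fold change of 0.03 (SE 0.24, 95% interval -0.48 to 0.53, edgeR adjusted p = 0.987). Its sign changed with the setting, to -0.18 without HET replicate 3. The gene lies at chr10:99263231-99267489.

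Dusp10 and Dusp16, the members directed at JNK and p38, had fold changes of opposite sign. Dusp10, which encodes MKP-5, measured 32.2, 25.4, 39.0 and 24.3 CPM in HET and 47.1, 27.1, 36.5 and 32.7 CPM in WT. These groups overlapped, with means of 30.2 ± 6.81 and 35.9 ± 8.44 CPM (SD, n = 4 each) and a log2 fold change of -0.25 (SE 0.23, 95% interval -0.75 to 0.26, edgeR adjusted p = 0.874). Dusp10 lies at chr1:184013302-184075636.

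Dusp16, which encodes MKP-7, a phosphatase that shuttles between nucleus and cytoplasm, measured 8.52, 11.7, 12.9 and 12.1 CPM in HET. In WT it measured 7.51, 4.67, 1.39 and 6.26 CPM. All HET libraries lay above all WT libraries, by the narrow margin between HET replicate 1 and WT replicate 1. These values rest on 11 to 106 counts per library, and the lowest, WT replicate 3, had a 95% counting interval of 0.691 to 2.48 CPM (exact Poisson). The means were 11.3 ± 1.92 CPM in HET and 4.96 ± 2.65 CPM in WT (SD, n = 4 each), 2.28 times as high in HET. The log2 fold change was 1.18 (SE 0.46, 95% interval 0.18 to 2.18), with an adjusted p of 0.612 in edgeR and 0.320 in DESeq2, so the difference did not pass either test. Without WT replicate 3 it was 0.88. The gene lies at chr6:134715468-134792625 (minus strand). The summed T cell markers measured 485, 765, 513 and 395 CPM in HET and 438, 598, 238 and 287 CPM in WT. This sum was also lowest in WT replicate 3. WT replicate 2 had a higher sum than HET replicates 1, 3 and 4 but less Dusp16. Of the 16 T cell markers tested, 15 had fold changes above 0 (median 0.48). Among these 16, 0 were called by edgeR or DESeq2 and 0 were at an unadjusted p under 0.05. The part of the T cell markers in the Dusp16 difference was not tested.

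**Figure D3:**
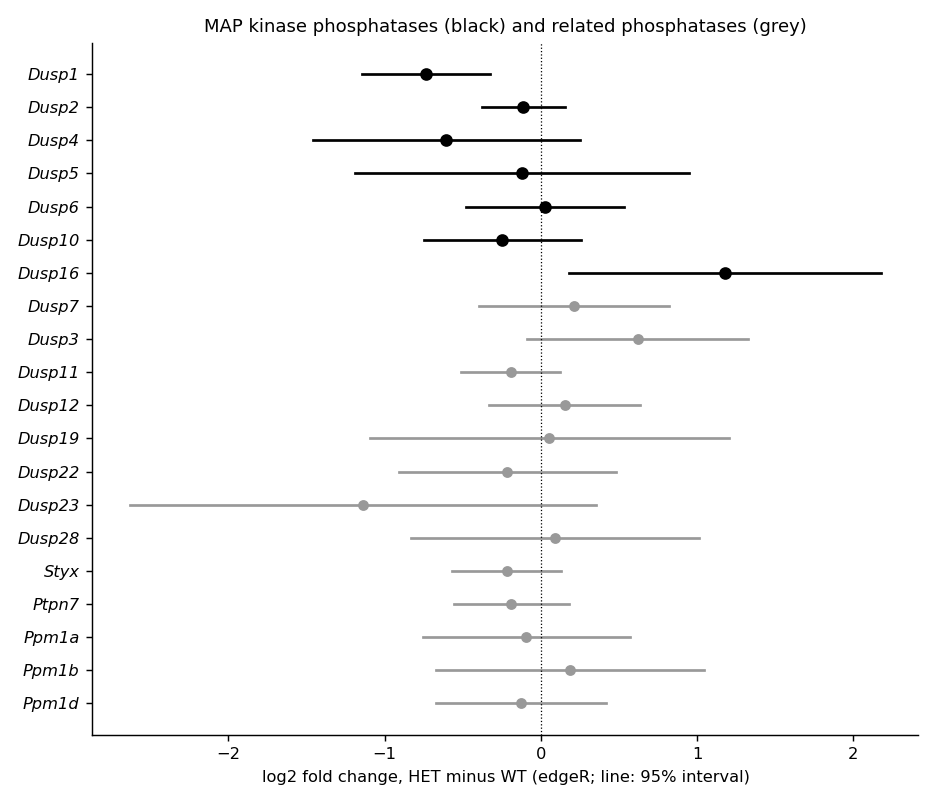
The log2 fold change (HET minus WT, edgeR) of the 7 members in black and of related phosphatases in grey, with lines for 95% intervals. The intervals of Dusp1 (-1.15 to -0.33) and Dusp16 (0.18 to 2.18) do not reach 0, and those of the other 18 genes do.

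Ratios between members within a library do not depend on sequencing depth, so the members were also set against each other. Of the 21 pairs, 5 did not overlap between the groups, and 4 of these 5 involved Dusp16. By a 2-sided exact permutation test each reached p = 0.0286, the lowest possible with 70 arrangements, or 0.12 when adjusted over the 21 pairs. With 5 pairs at this lowest p, none could pass the threshold however large its difference, so this test decides nothing about the ratios. The 4 pairs with Dusp16 share its reads, whose groups did not overlap by themselves, so they are not separate observations. The share among pairs of all genes was not computed. The log2 ratio of Dusp1 to Dusp6 reads was -0.39, -0.31, -0.66 and -0.16 in HET and 1.24, 0.35, 0.10 and -0.13 in WT. The groups did not overlap, with WT replicate 4 just above the highest HET library. The log2 ratio of Dusp1 to Dusp16 reads was 2.10, 2.19, 2.25 and 2.26 in HET and 3.89, 3.91, 5.88 and 3.74 in WT. WT replicate 3, where Dusp16 had 11 counts, stood high. The other WT libraries lay about as close together as those of HET. These ratios use the reads that gave the fold changes above and add no independent comparison. In contrast, the log2 ratio of Dusp1 to Dusp2 reads overlapped between the groups, averaging -3.62 ± 0.42 in HET and -3.0 ± 0.25 in WT (SD, n = 4 each).

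The spread of the members among repeated sorts differed from gene to gene. As a coefficient of variation over the 4 libraries of a group, it was 17.2% for Dusp2 in HET and 12.4% in WT. For Dusp1 it was 21.1% in HET and 20.2% in WT, and for Dusp5 47.2% and 45.3%. Dusp16 had 17.0% in HET and 53.4% in WT, where replicate 3 had 11 counts. Counting error, which is larger for members with few reads, is part of these values.

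The genes closest to each member in their pattern over the 8 libraries were found by the root mean square difference of centred log2 CPM among genes whose log2 CPM averaged 4 or more. Dusp2 was followed most closely by Ptpn7, a tyrosine phosphatase that also acts on ERK and p38, at 0.0735, and then by Gpr171 at 0.0883. Dusp1 was closest to Tmem41b (0.185) and Cds2 (0.206), and Dusp6 to Ppwd1 (0.155) and Zfp512b (0.171). Dusp4 was closest to Ankfy1 (0.159) and Dync1h1 (0.181), and Dusp10 to Mthfsd (0.119) and Mcts1 (0.124). For the members that varied most the differences were larger, with Ube2q1 (0.320) and 4833421G17Rik (0.381) nearest to Dusp5, and Josd1 (0.392) and Slc25a33 (0.397) nearest to Dusp16. The measure grows with a member's own spread, whose SD in log2 CPM was 0.84 for Dusp5 and 1.0 for Dusp16, against 0.22 for Dusp2. With some 7270 candidates and 8 libraries, such likeness is a description of these libraries.

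The kinases upstream of the phosphatases showed no difference past the adjusted threshold. Their counts at an unadjusted p under 0.05 in edgeR stand beside 7.22% of all genes. Of 16 ERK cascade genes tested, 8 had fold changes above 0 and 8 below 0, with a median of 0.03, and 0 were called by edgeR or DESeq2. At an unadjusted p under 0.05 there were 2 of them, the small GTPase gene Hras (12.7, 15.2, 17.8 and 6.22 CPM in HET and 7.22, 7.62, 4.67 and 2.82 CPM in WT, overlapping, 1.21 on the log2 scale, edgeR adjusted p = 0.576) and the kinase gene Braf (14.8 CPM on average in HET and 23.5 CPM in WT, -0.67, edgeR adjusted p = 0.621). Of 15 JNK and p38 cascade genes, 8 were above and 7 below 0, with a median of 0.0007, with 0 called by edgeR or DESeq2 and 1 at an unadjusted p under 0.05. This was Map3k4, a kinase that feeds p38 and JNK, at a log2 fold change of -0.65 (edgeR adjusted p = 0.621). Of 9 kinases that MAP kinases activate, 5 were above and 4 below 0, with 0 called by edgeR or DESeq2 and 1, Rps6ka2, at an unadjusted p under 0.05.

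The feedback inhibitors outside the phosphatase family, which act on Ras or Raf, also had 0 calls by edgeR or DESeq2. In edgeR 2 of them were lower in HET at an unadjusted p under 0.05, beside 3.88% of all genes. Of the 9 inhibitors tested, 6 had fold changes below 0 and 3 above 0, with a median of -0.18. Rasa3, which encodes a GTPase-activating protein that turns Ras and Rap off, measured 152, 126, 139.9 and 172 CPM in HET and 197, 177, 235 and 179.7 CPM in WT, with no overlap and a log2 fold change of -0.42 (SE 0.13, edgeR adjusted p = 0.492). Its relative Rasa2 measured 59.8, 76.7, 43.6 and 48.2 CPM in HET and 82.0, 77.5, 79.3 and 98.3 CPM in WT, also without overlap, at -0.56 (SE 0.18, edgeR adjusted p = 0.547). Groups without overlap, lower in HET, were found for 2.62% of all genes. Neither Rasa3 nor Rasa2 passed the threshold in DESeq2 (adjusted p = 0.169 and 0.198).

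Among the related phosphatases there was no call. Dusp7, the close relative of Dusp6, was at 0.21 on the log2 scale. Of 8 atypical dual-specificity phosphatases tested, which lack the MAP kinase docking domain of the members, 4 were above and 4 below 0, with 0 at an unadjusted p under 0.05 in edgeR and 0 called by DESeq2. Dusp3, which encodes the small phosphatase VHR, was at 0.62 (SE 0.33, edgeR adjusted p = 0.738), with 19.3 CPM on average in HET and 12.5 CPM in WT. Of 4 further phosphatases that act on MAP kinases, 3 were below and 1 above 0, with 0 at an unadjusted p under 0.05 in edgeR and 0 called by DESeq2, and Ptpn7 at -0.19 (SE 0.17, edgeR adjusted p = 0.863).

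The differences in Dusp1 and Dusp16 kept their direction in every fit that tested them, as the map of fold changes by fit shows. Their groups did not overlap, so leaving out 1 library could not be expected to change the sign. All fits used the same libraries, so they are not separate support for the direction. At an unadjusted p under 0.05, Dusp1 was past that limit in each of the 8 fits with a library left out and in the 9 others, while Dusp16 was not when HET replicate 3 was left out and was not tested with a minimum mean TPM. Dusp5 and Dusp6, whose fold changes were near 0, changed sign in some of them.

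**Figure D4:**
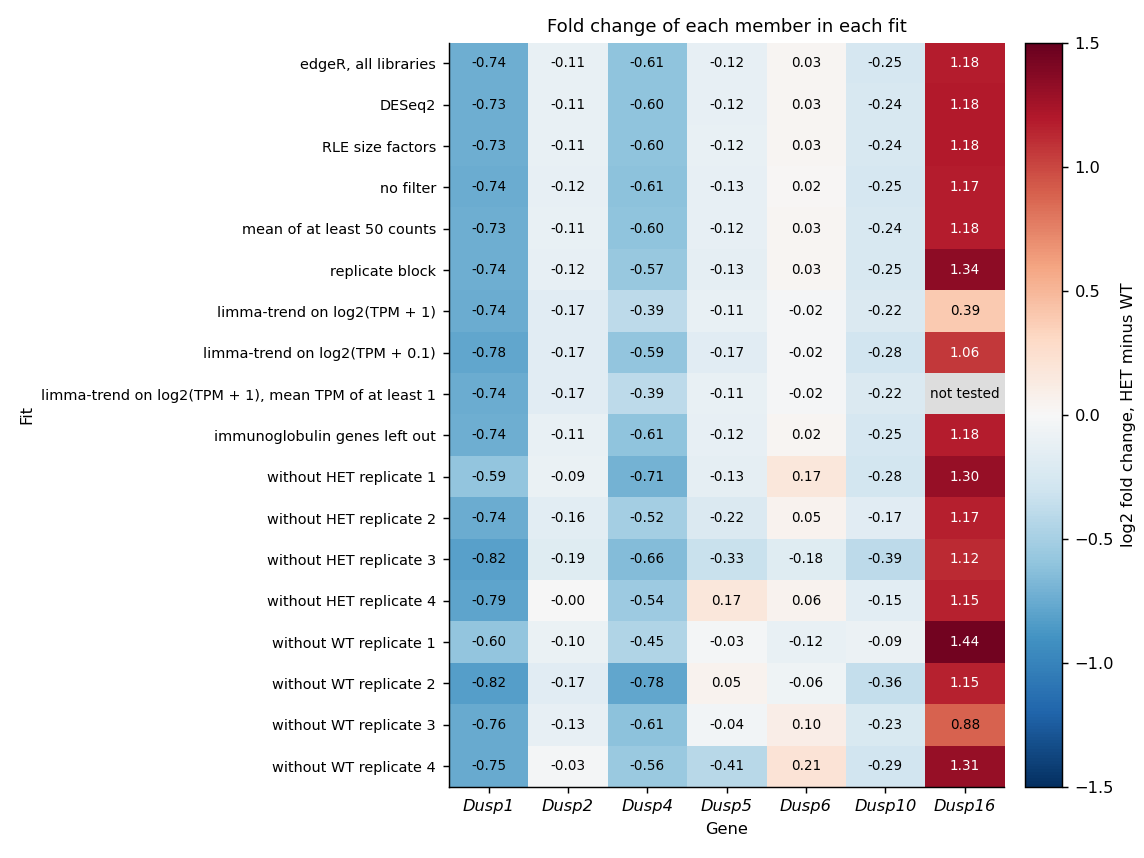
The log2 fold change (HET minus WT) of each member, in columns, under each fit, in lines, colored from blue (lower in HET) to red (higher in HET) and printed in each cell. Dusp1 stays between -0.82 and -0.59 and Dusp16 between 0.39 and 1.44, with the lowest Dusp16 value from a pseudocount of 1 TPM, which exceeds its level.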

How the data were processed

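The libraries were made by a SMART-Seq2 protocol adapted to about 200 cells. Per the methods and the labels, the authors aligned reads to GRCm38 (mm10) with HISAT2 2.2.1 and counted them with HTSeq; the strand setting, the annotation release and how reads with several alignments were treated were not given in the sources used here. The deposited counts are whole reads per gene (24259 symbols), and the deposited TPM values (24232 symbols) are these counts divided by a fixed length per gene and rescaled by the authors. Total counts were 6652386 to 12559189. There were no molecular identifiers, so counting intervals cover counting error only. All 8 columns of each table matched a library by name, and 0 were left unmapped.

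In R 4.3.3, the counts were fitted with edgeR 4.0.16: filterByExpr (12744 genes, 99.7% of counts), TMM, and the robust quasi-likelihood F test with group as the only factor and Benjamini-Hochberg adjustment over all genes tested, at 0.05. Standard errors were obtained from the fold change and F. The tool of the study, DESeq2 (1.42.0), was run as an alternative. Further alternatives were the replicate number as a block, RLE size factors, no filter on low counts, a filter at a mean of 50 counts, limma-trend (limma 3.58.1) on log2(TPM + 1) and log2(TPM + 0.1) and with a mean TPM of at least 1, immunoglobulin genes left out, and each library left out. The length scales for Dusp1 and Dusp6 were added after the data were seen. The fits were tested on simulated counts. Positions and lengths came from GENCODE M21 on GRCm38, promoters from RefSeq.

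The members and lists were chosen with earlier results of these data known. All members are named; of the lists, genes past the threshold or up to 3 of the lowest p; for likeness, the 2 nearest genes whose log2 CPM averaged 4 or more.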

Additional observations from a re-analysis of the deposited data

How the results depend on the processing

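Over all genes edgeR called 3, and the number was 95 by DESeq2 (41 higher and 54 lower in HET), 38 with no filter (19 and 19), 7 with a mean of at least 50 counts (3 and 4), 0 with limma-trend on log2(TPM + 1) with or without a mean TPM of at least 1, and 1 on log2(TPM + 0.1). Leaving out each library in turn gave 1 to 6 calls; it was 1 without any single HET library or without WT replicate 3, and 6 without WT replicate 1. The number of members called was 0 by edgeR and 1 by DESeq2, and 0 under the other alternatives. The number at an unadjusted p under 0.05 was 2, and 1 with a mean TPM of at least 1, where Dusp16 was not tested because its level lay under that limit; without each library it was 1 to 2. Dusp6 went from 0.03 to -0.0183 in limma-trend on log2(TPM + 1), with or without the TPM limit, and to -0.0185 on log2(TPM + 0.1); leaving out libraries it ran from -0.18 to 0.21, below 0 without HET replicate 3 (-0.18), WT replicate 1 (-0.12) or WT replicate 2 (-0.06). Dusp5 ran from -0.41 to 0.17 around its -0.12, above 0 without HET replicate 4 (0.17) or WT replicate 2 (0.05). The cause was not tested. No alternative moved the median fold change of all genes by over 0.1. The ratio of the Dusp1 level to the Dusp6 level was 0.238 in TPM, 1.43 by main transcript and 0.965 by summed exons.

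The shared replicate numbers did not pair the samples: the deviations of same-numbered libraries from their group means correlated at -0.05, 0.01, 0.0028 and -0.03. With the replicate block, edgeR called 0 genes and 0 members, and the log2 fold changes were -0.74 for Dusp1 (adjusted p = 0.637) and 1.34 for Dusp16 (adjusted p = 0.675). Depth limits the members with few reads: 3 counts were 0.241 to 0.455 CPM, against 1.39 CPM in the lowest library of Dusp16 (11 counts), 2.88 CPM in that of Dusp5 (19 counts) and 4.40 CPM in that of Dusp4 (31 counts).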

Other observations

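Dusp9, a member of the cytoplasmic ERK phosphatase subgroup that did not pass the filter, had 24 counts in HET replicate 1, 9 in WT replicate 2, 1 in WT replicate 4 and 0 in the other 5 libraries. Dusp23, an atypical phosphatase of low abundance, measured 1.61, 0.389, 1.95 and 1.06 CPM in HET and 2.85, 3.35, 2.40 and 2.51 CPM in WT, without overlap between the groups, on 3 to 33 counts per library. Groups lay apart in this direction for 2.62% of all genes. The log2 fold change of Dusp23 was -1.14 (SE 0.69, edgeR adjusted p = 0.783).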
